A study of Homo sapiens with 6 samples.

Results

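The genes described here are 38 genes of glycolysis and the hypoxia response in PC-3 cells, an established line from a metastasis of a prostate carcinoma. They were taken from a named list and found by gene symbol among the 57396 genes of the count table, and all 38 passed the filter on low counts that left 15312 genes for testing. They comprise 24 glycolytic genes (glucose and lactate transporters, glycolytic enzymes and kinases that act on the pathway), 12 other target genes of the hypoxia-inducible factors (HIF) and the genes of 2 HIF alpha subunits.

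Messenger RNA was sequenced from 3 libraries of cells treated with 160 µM S-adenosylmethionine (SAM), the methyl donor of most cellular methylation reactions, and from 3 libraries of cells given the vehicle, labelled PBS (control), both for 5 d. All libraries come from the 1 cell line, and the labels name no other agent, genetic change or oxygen condition in either group. Nothing in the labels states that the replicates were separate cultures. The p-values below set the difference between groups against the variation among libraries of a group, and that variation may be technical. The question was which genes of the pathway differed in transcript level after SAM.

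Glycolysis converts glucose to pyruvate in the cytosol, and many tumour cells run it at a high rate and reduce the pyruvate to lactate, which leaves the cell through monocarboxylate transporters. HIF is a pair of proteins: an alpha subunit, which prolyl hydroxylases mark for destruction when oxygen is present, and a beta subunit that is always present. When the alpha subunit persists, the pair binds a short DNA element near many of the genes described here, so that several glycolytic genes are HIF targets as well.

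The libraries held between 9379258 (control 1) and 28995160 (SAM 1) gene counts, a 3.09-fold range, and a floor of 3 counts corresponded to 0.103 to 0.320 CPM (a gene's counts per unit of library size, TMM-scaled, on the usual CPM scale). The epithelial genes KRT8 (710 to 927 CPM), KRT18 (910 to 1307 CPM) and EPCAM (399 to 468 CPM) were high in each library. Of 5 epithelial markers CDH1 fell, by 0.45 on the log2 scale (adjusted p = 0.0298), and the other 4 did not pass. Of 5 androgen-regulated genes 2 were tested, and KLK3 had 0 counts. TMPRSS2 fell from 5.13 to 3.29 CPM (adjusted p = 0.0492), a call that DESeq2 did not make. The other tested gene had a log2 fold change above 0, with groups that did not overlap, and did not pass. Of the fibroblast markers COL1A1 was present (16.6 to 18.8 CPM) and DCN and LUM were at 0, and 0 leukocyte or endothelial markers passed the filter. Control 1 and SAM 2, the shallowest library of each group, deviated from their group means together (r = 0.45 across genes, which are not independent replicates), so results are also given without both. SAM 3 stood apart in composition: its log2 CPM rose by 0.12 per 10 percentage points of GC content, against -0.06 to 0.00 in the other 5 libraries. With edgeR's quasi-likelihood test and a threshold of 0.05 on the p adjusted over all 15312 genes (Benjamini-Hochberg), 795 genes (5.19%) passed as higher after SAM and 803 (5.24%) as lower, together 10.4%. The median log2 fold change was -0.01.

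Of the 38 genes, 4 rose and 1 fell with SAM, together 13.2% and so near the 10.4% of all tested genes (5.19% higher and 5.24% lower). EGLN3, a HIF prolyl hydroxylase, rose 1.70-fold, ALDOC, the brain-type aldolase, 1.44-fold, CA12, a cell-surface carbonic anhydrase, 1.40-fold, and PFKFB3, which makes the activator of phosphofructokinase, 1.24-fold. BNIP3L, a mitophagy receptor, fell to 0.728 of its control level. Among glycolytic genes 2 of 24 passed (8.33%, against 10.4% of all tested genes), and among the other HIF targets 3 of 12 (25.0%). In the plot of fold changes the point estimates of 17 of 24 glycolytic genes lie to the right of 0, and the HIF targets extend to both sides.

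**Figure D1:**
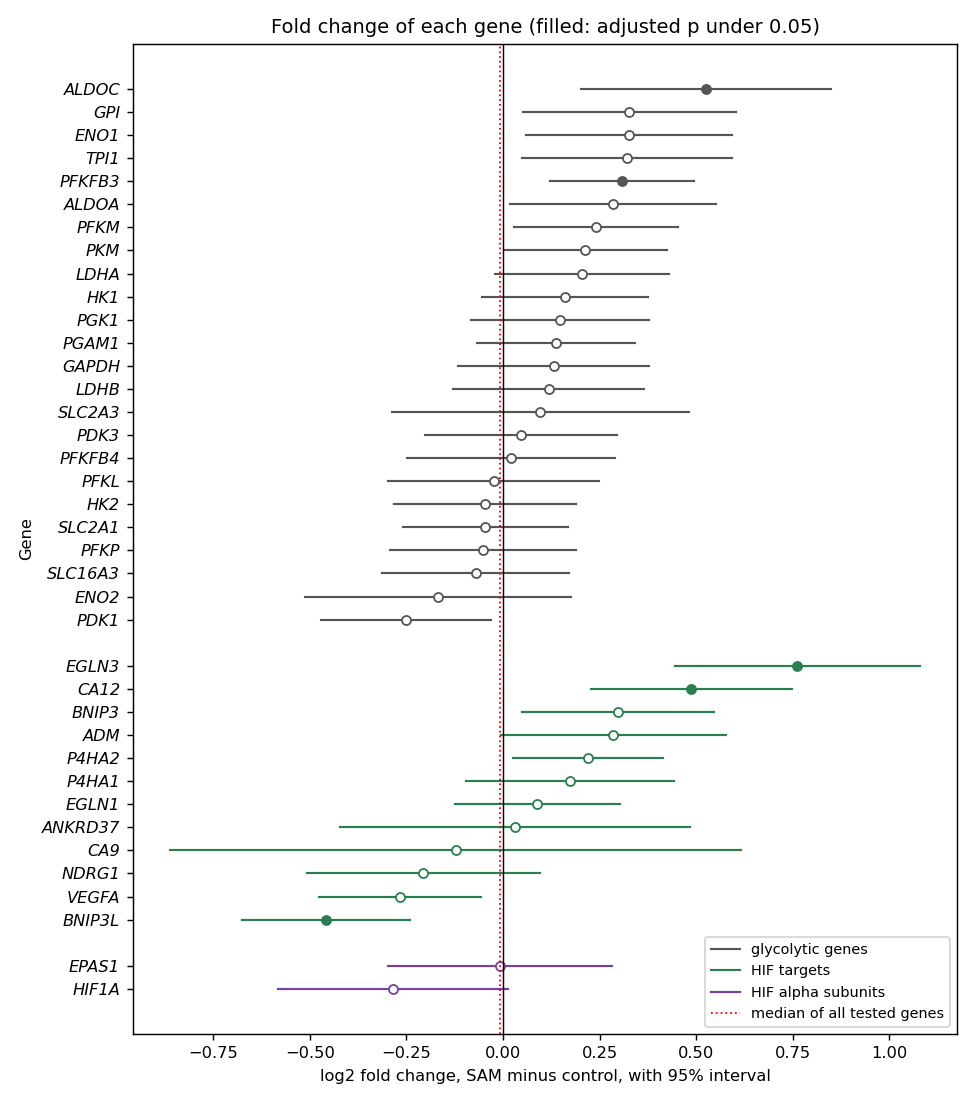
Log2 fold change (horizontal axis, SAM minus control) of each of the 38 genes (vertical axis), with 95% intervals as bars and filled points for an adjusted p under 0.05; the dotted line is the median of all tested genes. EGLN3 at 0.76 and BNIP3L at -0.46 are the outermost points among the called genes.

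The HIF heterodimer recognises the core letters ACGTG or GCGTG. RefSeq promoter windows (GRCh38.p14, 250 bases before to 50 after a gene's start) are shown for the 4 genes that rose, and for the upstream start of LDHA, which did not pass the test, as a gene with many copies of the core. Each runs 5′ to 3′ on the gene's strand, and capitals mark the core on either strand (CACGT and CACGC are its reverse complements).

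ALDOC, chr17:28576846-28577145, minus strand: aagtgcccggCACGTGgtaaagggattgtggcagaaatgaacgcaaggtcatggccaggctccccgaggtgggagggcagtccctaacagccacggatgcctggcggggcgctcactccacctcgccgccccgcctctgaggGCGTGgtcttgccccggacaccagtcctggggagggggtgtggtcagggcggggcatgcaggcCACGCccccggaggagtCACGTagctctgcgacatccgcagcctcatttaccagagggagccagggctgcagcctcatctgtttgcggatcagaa
PFKFB3, upstream start, chr10:6144671-6144970, plus strand: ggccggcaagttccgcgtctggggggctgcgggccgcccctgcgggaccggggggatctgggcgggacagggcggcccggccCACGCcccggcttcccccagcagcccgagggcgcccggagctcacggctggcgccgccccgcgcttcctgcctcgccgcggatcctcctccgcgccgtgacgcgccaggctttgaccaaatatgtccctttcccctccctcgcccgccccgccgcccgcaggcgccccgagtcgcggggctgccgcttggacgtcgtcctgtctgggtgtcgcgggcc
PFKFB3, downstream start, chr10:6202682-6202981, plus strand: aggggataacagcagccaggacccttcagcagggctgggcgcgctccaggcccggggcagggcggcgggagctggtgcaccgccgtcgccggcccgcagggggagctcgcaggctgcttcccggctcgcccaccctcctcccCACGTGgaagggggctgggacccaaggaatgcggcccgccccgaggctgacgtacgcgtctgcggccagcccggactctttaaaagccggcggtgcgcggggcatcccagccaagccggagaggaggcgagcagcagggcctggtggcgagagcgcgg
CA12, chr15:63381797-63382096, minus strand: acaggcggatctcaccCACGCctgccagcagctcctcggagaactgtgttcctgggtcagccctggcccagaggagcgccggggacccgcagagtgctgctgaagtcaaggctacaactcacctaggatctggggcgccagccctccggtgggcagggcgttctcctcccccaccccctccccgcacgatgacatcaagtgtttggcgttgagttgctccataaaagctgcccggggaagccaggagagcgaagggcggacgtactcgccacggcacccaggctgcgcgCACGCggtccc
EGLN3, chr14:33951025-33951324, minus strand: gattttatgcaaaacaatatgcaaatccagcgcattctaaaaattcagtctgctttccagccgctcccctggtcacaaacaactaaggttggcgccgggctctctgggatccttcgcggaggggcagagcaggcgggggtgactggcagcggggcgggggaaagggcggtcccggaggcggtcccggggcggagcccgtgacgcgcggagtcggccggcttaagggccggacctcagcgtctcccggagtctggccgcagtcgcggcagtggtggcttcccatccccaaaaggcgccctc
LDHA, upstream start, chr11:18394313-18394612, plus strand: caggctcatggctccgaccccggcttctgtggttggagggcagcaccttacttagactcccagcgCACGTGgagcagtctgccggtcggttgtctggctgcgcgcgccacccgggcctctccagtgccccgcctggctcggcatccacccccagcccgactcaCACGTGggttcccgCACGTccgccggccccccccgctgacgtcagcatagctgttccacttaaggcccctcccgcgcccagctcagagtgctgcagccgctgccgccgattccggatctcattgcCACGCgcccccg

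The core was found 5 times in the ALDOC window, at positions -240, -239, -108, -45 and -28 (the start is position 1, with no position 0), and 6 times in the upstream LDHA window. It was found 2 times in the CA12 window, 1 time in the upstream and 2 times in the downstream PFKFB3 window, and 0 times in the EGLN3 window. The palindrome CACGTG, the E-box, holds the core on both strands and so counts as 2 overlapping matches. Of all 35116 promoter windows 48.4% held the core, against 32 of 49 windows of glycolytic genes (65.3%) and 7 of 9 of the other HIF targets (77.8%). Median GC content was 58.7% over all windows, 68.7% for glycolytic genes and 66.7% for the other HIF targets. Its part in these shares was not tested. CACGTG was in 7.26% of all windows, 12.2% of the glycolytic ones and 22.2% of those of HIF targets. These are matches of letters in short windows, and genes with several starts have several windows. Windows were found for 34 of the 38 genes, the others being SLC2A3, VEGFA, NDRG1 and BNIP3L.

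Glucose enters the cell through facilitative transporters. SLC2A1 (GLUT1), the transporter of most proliferating cells, stood at 123, 133 and 135 CPM in control 1 to 3 and at 123, 120 and 136 CPM in SAM 1 to 3. The groups overlapped, and the log2 fold change was -0.05 (95% interval -0.26 to 0.17, adjusted p = 0.771). Per kilobase of transcript SLC2A1 was by far the more abundant of both listed transporters, at 38.5 CPM/kb in controls against 1.52 CPM/kb for SLC2A3 (GLUT3), which gave a log2 fold change of 0.10 (adjusted p = 0.732).

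Hexokinases trap glucose in the cell by phosphorylating it. HK1, the housekeeping hexokinase, read 268, 232 and 248 CPM in controls and 260, 282 and 295 CPM with SAM. Control 1 lay above SAM 1, and the log2 fold change of 0.16 did not pass (adjusted p = 0.281). HK1 supplied 78.5 to 80.3% of the hexokinase transcripts per kilobase in controls, over HK2, the form induced in many tumours, and 79.9 to 83.9% with SAM. HK2 had a log2 fold change of -0.05 (adjusted p = 0.796). GPI, which isomerises the product to fructose 6-phosphate, read 445, 391 and 413 CPM in controls and 453, 494 and 620 CPM with SAM. Its groups did not overlap, the lowest SAM library exceeding the highest control by little, and its log2 fold change of 0.33 (95% interval 0.05 to 0.60) gave an adjusted p of 0.111; without SAM 3 it was 0.19.

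Phosphofructokinase is the committed step of the pathway, and fructose 2,6-bisphosphate is its strongest activator. PFKP, the platelet-type subunit and the one with the highest level per kilobase here, read 197, 187 and 194 CPM in controls and 165, 181 and 212 CPM with SAM. The SAM libraries lay on both sides of the controls, with a log2 fold change of -0.05 (adjusted p = 0.773). PFKL, the liver type, gave -0.02 (adjusted p = 0.915). PFKM, the muscle type, went from 114 ± 7.35 CPM (SD, n = 3) to 135 ± 6.68 CPM (SD, n = 3) without overlap, which gave 0.24 with an adjusted p of 0.125.

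PFKFB3 (ENSG00000170525, chromosome 10, positions 6144934 to 6235545, plus strand) encodes the bifunctional enzyme with the most one-sided kinase activity towards fructose 2,6-bisphosphate. It stood at 33.0, 34.7 and 32.7 CPM in controls and at 42.3, 42.2 and 39.9 CPM with SAM. Each SAM library lay above each control, and both groups were tight. The log2 fold change was 0.31 (SE 0.084, 95% interval 0.12 to 0.49, adjusted p = 0.0454). This call held in 4 of 17 alternative settings: its log2 fold change stayed between 0.28 and 0.34 while the adjusted p reached 0.220 without control 3, and it also missed without control 1 (0.198), control 2 (0.130), SAM 1 (0.127), SAM 2 (0.0588), and control 1 with SAM 2 (0.176). The call was lost as well with DESeq2 (adjusted p = 0.0550), limma voom (0.0546), limma with a trend (0.0542), no filter (0.0639), library totals only (0.0681), the replicate block (0.120) and a threshold of 0.01. PFKFB4, a related enzyme with a higher level per kilobase in controls (9.75 against 7.47 CPM/kb), read 30.4, 37.7 and 34.3 CPM in controls and 32.5, 31.6 and 40.2 CPM with SAM, and the groups overlapped (log2 fold change 0.02, adjusted p = 0.930).

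Aldolase splits fructose 1,6-bisphosphate. ALDOA, the form of muscle and most tumour cells, read 921, 957 and 925 CPM in controls and 1054, 1001 and 1361 CPM with SAM. Its groups did not overlap and SAM 3 was highest, but the log2 fold change of 0.28 did not pass (adjusted p = 0.141); without SAM 3 it was 0.14. ALDOC (ENSG00000109107, chromosome 17, positions 28573115 to 28577264, minus strand) stood at 19.3, 20.9 and 19 CPM in controls and at 24.0, 26.3 and 35.4 CPM with SAM. The lowest SAM library was above the highest control, and SAM 3 stood well above the other SAM libraries. The log2 fold change was 0.53 (SE 0.145, 95% interval 0.20 to 0.85, adjusted p = 0.0475), and without SAM 3 it was 0.34 (adjusted p = 0.0345). The call held in 8 of 17 alternatives and was lost without control 1 (adjusted p = 0.151), control 2 (0.116), control 3 (0.192), SAM 1 (0.0688), or control 1 with SAM 2 (0.0964), with library totals only (0.0531), limma voom (0.0574) or limma with a trend (0.0520), and at a threshold of 0.01. A locus that overlaps ALDOC on the same strand, RP11-192H23.4, held 268 counts beside the 2571 of ALDOC and had a log2 fold change of 0.49 (adjusted p = 0.175). Per kilobase ALDOC made up 2.05 to 2.18% of both aldolase transcripts in controls and 2.27 to 2.61% with SAM.

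The triose steps include the dehydrogenase that yields NADH and the first kinase that yields ATP, and their genes are among the most abundant transcripts of the list. GAPDH, the dehydrogenase often used as a reference gene, read 2458, 2512 and 2473 CPM in controls and 2430, 2507 and 3217 CPM with SAM. SAM 1 and SAM 2 lay among the controls while SAM 3 stood above them, and the log2 fold change of 0.13 (adjusted p = 0.443) became -0.0030 without SAM 3. TPI1, triosephosphate isomerase, had means of 604 ± 53.3 CPM (controls) and 754 ± 110 CPM (SAM; SD, n = 3), which gave 0.32 (adjusted p = 0.113). PGK1, that kinase, gave 0.15 (adjusted p = 0.358), and PGAM1, a phosphoglycerate mutase, 0.14 (adjusted p = 0.333).

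Enolase and pyruvate kinase complete the route to pyruvate. ENO1, the enolase of most tissues, read 1955, 1857 and 1911 CPM in controls and 2132, 2154 and 2887 CPM with SAM. The groups did not overlap, SAM 3 was highest, and the log2 fold change of 0.33 (95% interval 0.06 to 0.59) gave an adjusted p of 0.104; without SAM 3 it was 0.17. ENO2, the neuronal enolase, was at 32.4 ± 3.14 CPM (SD, n = 3) in controls and 29.0 ± 6.75 CPM (SD, n = 3) with SAM, with a log2 fold change of -0.17 (adjusted p = 0.483). Without SAM 3 its log2 fold change was -0.37 and passed (adjusted p = 0.0316). PKM, pyruvate kinase of muscle and tumour cells, gave 0.21 (adjusted p = 0.160).

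**Figure D2:**
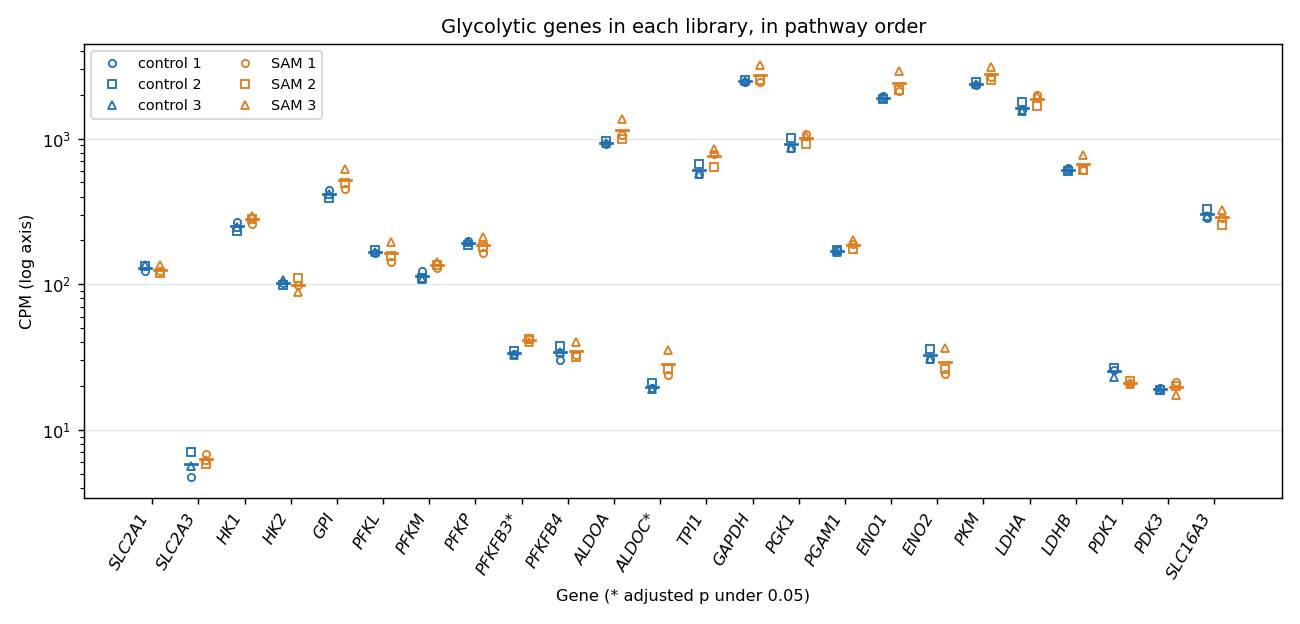
CPM on a log axis (vertical) of the 24 glycolytic genes in pathway order (horizontal) in each of 3 control (blue) and 3 SAM (orange) libraries; marker shapes give the library, short bars the group mean and asterisks an adjusted p under 0.05. SAM 3 (orange triangles) was the highest library in 16 of 24 genes, and levels span from 4.72 CPM (SLC2A3) to 3217 CPM (GAPDH).

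Pyruvate is reduced to lactate or enters the mitochondrion. LDHA, the lactate dehydrogenase subunit that favours lactate, read 1562, 1769 and 1548 CPM in controls and 1998, 1666 and 1961 CPM with SAM. SAM 2 lay below control 2, and the log2 fold change of 0.20 did not pass (adjusted p = 0.198). LDHB, the heart-type subunit, gave 0.12 (adjusted p = 0.490), and SLC16A3 (MCT4), the lactate exporter of glycolytic cells, -0.07 (adjusted p = 0.690). The pyruvate dehydrogenase kinases shut the mitochondrial route. PDK3 read 19.5, 18.8 and 18.9 CPM in controls and 21.5, 20 and 17.3 CPM with SAM, with overlap and a log2 fold change of 0.05 (adjusted p = 0.799). PDK1, a well-known HIF target, read 25.9, 26.7 and 23.0 CPM in controls and 21.1, 21.7 and 20.7 CPM with SAM. Each SAM library was below each control, but the log2 fold change of -0.25 (95% interval -0.47 to -0.03) did not pass (adjusted p = 0.123). With the length and GC trend removed it was -0.01 (adjusted p = 0.957).

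As a list, the 24 glycolytic genes had a median log2 fold change of 0.13, against -0.01 over all tested genes, and 17 (70.8%) lay above 0, against 49.1%. The groups did not overlap in 9 genes (37.5%), close to the 36.7% of all tested genes. The 22 that did not pass spanned -0.25 to 0.33, and for 19 of them the 95% interval lay within a 1.5-fold change either way. The genes together took 1.33, 1.40 and 1.35% of all counts in the controls and 1.48, 1.38 and 1.72% in the SAM libraries, in replicate order, with SAM 2 between 2 controls. SAM 3, which had the highest share, also had the steepest slopes on GC content and on length (-0.11 in log2 CPM per doubling of length). A link between share and slopes was not tested. Without SAM 3 the median was 0.12 with 15 genes above 0, and after a trend on length and GC content was removed from each library it was 0.18 with 19 above 0. In RNA from whole cultures, fewer cells that express a gene and less RNA per cell cannot be told apart.

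Among the other HIF targets, the prolyl hydroxylases are both targets of HIF and the enzymes that mark it for destruction. EGLN3 (PHD3, ENSG00000129521, chromosome 14, positions 33924231 to 34462774, minus strand) stood at 6.22, 6.58 and 5.78 CPM in controls and at 10.6, 9.22 and 11.6 CPM with SAM. The groups were far apart relative to their spread. The log2 fold change was 0.76 (SE 0.142, 95% interval 0.45 to 1.08, adjusted p = 0.0133), the largest rise of the 38 genes in this fit. It held in 12 of 17 alternatives, with log2 fold changes of 0.70 to 0.85. The call missed at a threshold of 0.01 and without control 1 (adjusted p = 0.0639), control 2 (0.0574), control 3 (0.0877) or SAM 1 (0.0642). Without both control 1 and SAM 2 the adjusted p was 0.0292. The annotated span of EGLN3 contains SPTSSA, on the same strand with 8134 counts against 914 of EGLN3. SPTSSA was at 75.9 ± 6.93 CPM (SD, n = 3) in controls and 75.1 ± 5.09 CPM (SD, n = 3) with SAM, and gave -0.01 on the log2 scale. EGLN1 (PHD2), the main oxygen sensor of most cells, read 63.1, 63.9 and 65.0 CPM in controls and 74.4, 67.8 and 61.9 CPM with SAM. Its groups overlapped, with a log2 fold change of 0.09 (adjusted p = 0.551).

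Carbonic anhydrases at the cell surface hydrate carbon dioxide and so set the pH outside the cell. CA12 (ENSG00000074410, chromosome 15, positions 63321378 to 63382161, minus strand) stood at 17.1, 17.3 and 15.3 CPM in controls and at 22.3, 21.1 and 26.1 CPM with SAM. All SAM libraries exceeded all controls. The log2 fold change was 0.49 (SE 0.117, 95% interval 0.23 to 0.75, adjusted p = 0.0299). The call held in 10 of 17 alternatives and missed without control 1 (adjusted p = 0.103), control 2 (0.0971), control 3 (0.170), SAM 1 (0.0874), or control 1 with SAM 2 (0.0568), under the replicate block (0.0617) and at a threshold of 0.01. CA9, a classical marker of hypoxic tumours, was low and varied widely, at 2.25, 6.18 and 3.82 CPM in controls and 3.65, 2.71 and 5.41 CPM with SAM. With 455 counts in all, its log2 fold change of -0.12 had an interval of -0.86 to 0.62 (adjusted p = 0.830), which included a 1.5-fold change in either direction. ARHGEF39, which overlaps CA9 on the other strand, held 776 counts.

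Mitophagy receptors tag mitochondria for removal. BNIP3L (NIX, ENSG00000104765, chromosome 8, positions 26382898 to 26505636, plus strand) stood at 85.6, 93.3 and 86.4 CPM in controls and at 68.7, 65.5 and 59.0 CPM with SAM. Every SAM library was below every control. The log2 fold change was -0.46 (SE 0.098, 95% interval -0.67 to -0.24, adjusted p = 0.0214). The call held in 11 of 17 alternatives and missed without control 1 (adjusted p = 0.0875), control 2 (0.0922), control 3 (0.10), SAM 1 (0.0628), or control 1 with SAM 2 (0.0568), and at a threshold of 0.01. PNMA2, which overlaps the end of the annotated span on the opposite strand with 527 counts against 8278, fell too, by 0.79 on the log2 scale (adjusted p = 0.0211). BNIP3, the related receptor, read 57.3, 68.5 and 58.9 CPM in controls and 81.9, 67.1 and 78.0 CPM with SAM. SAM 2 lay just below control 2, and the log2 fold change of 0.30 did not pass (adjusted p = 0.109).

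**Figure D3:**
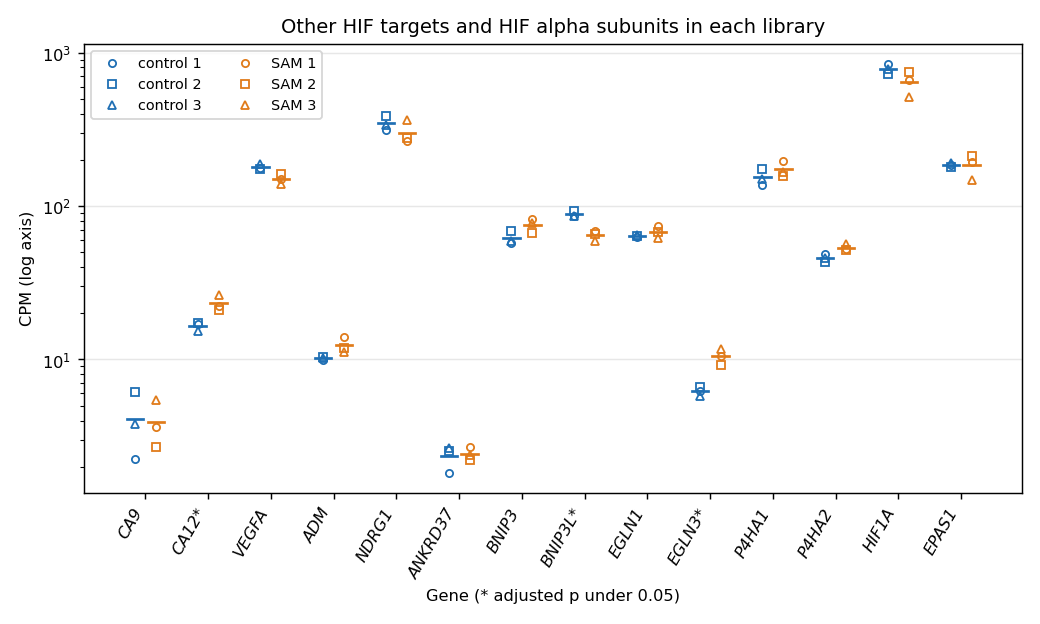
CPM on a log axis (vertical) of the 12 other HIF targets and both HIF alpha genes (horizontal) in each control (blue) and SAM (orange) library; shapes give the library, short bars the group mean and asterisks an adjusted p under 0.05. EGLN3, CA12 and BNIP3L show groups that do not overlap, and CA9 spans 2.25 to 6.18 CPM within the controls alone.

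VEGFA, the main angiogenic growth factor, read 178, 175 and 189 CPM in controls and 149, 161 and 140 CPM with SAM. All SAM libraries were below all controls, yet the log2 fold change of -0.27 (95% interval -0.48 to -0.06) did not pass (adjusted p = 0.0925). Removal of the length and GC trend gave -0.11 (adjusted p = 0.314), and leaving out SAM 2 gave -0.32, which passed (adjusted p = 0.0344). ADM, a vasodilator peptide, went from 10.2 ± 0.213 to 12.4 ± 1.51 CPM (SD, n = 3) without overlap and gave 0.29 (adjusted p = 0.171). NDRG1, a stress-response gene of prostate and other epithelia, read 314, 389 and 339 CPM in controls and 263, 278 and 362 CPM with SAM, with overlap through SAM 3 (log2 fold change -0.21, adjusted p = 0.325). Without SAM 3 its log2 fold change was -0.36 (adjusted p = 0.0419). ANKRD37, a HIF target with 267 counts in all, stood between 1.82 and 2.69 CPM in every library, and gave 0.03 (adjusted p = 0.938). UFSP2, which overlaps it on the other strand, held 2423 counts.

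The collagen prolyl hydroxylases P4HA1 and P4HA2 stabilise the collagen triple helix. P4HA1, the more abundant per kilobase, read 138, 173 and 150 CPM in controls and 197, 158 and 166 CPM with SAM, with overlap (log2 fold change 0.17, adjusted p = 0.353). P4HA2 had means of 46.0 ± 2.57 CPM (controls) and 53.5 ± 2.49 CPM (SAM; SD, n = 3), without overlap, and gave 0.22 (adjusted p = 0.125). Over the 12 HIF targets the median log2 fold change was 0.13, 8 lay above 0, and the groups did not overlap in 6 (50%, against 36.7% of all tested genes). The 9 that did not pass spanned -0.27 to 0.30, and the intervals of 8 lay within 1.5-fold. Together they took 0.0916, 0.106 and 0.0993% of counts in controls and 0.0941, 0.0881 and 0.0960% with SAM, with overlap.

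HIF1A (ENSG00000100644, chromosome 14, positions 61695513 to 61748259, plus strand) encodes the alpha subunit found in nearly all cells. It read 838, 730 and 783 CPM in controls and 664, 749 and 516 CPM with SAM. SAM 2 lay among the controls and the other SAM libraries below them, and the log2 fold change was -0.29 (SE 0.133, 95% interval -0.58 to 0.01, adjusted p = 0.179). Without SAM 2 it was -0.41 (adjusted p = 0.0447). EPAS1 (HIF2A, ENSG00000116016, chromosome 2, positions 46293667 to 46386703, plus strand), the alpha subunit best known from endothelium and kidney cancer, read 184, 179 and 192 CPM in controls and 194, 212 and 147 CPM with SAM. SAM libraries lay on both sides of the controls, and the log2 fold change was -0.01 (95% interval -0.30 to 0.28, adjusted p = 0.977). Per kilobase HIF1A was the more abundant, at 199 CPM/kb in controls and 163 with SAM, against 35.9 and 35.7 for EPAS1. HIF activity is set mainly by protein stability, which these libraries do not measure.

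Ratios of related genes within a library do not depend on how libraries are scaled, and 14 such pairs were compared. A trend on GC content or length, such as that of SAM 3, stays in these ratios, and its part was not tested. In 7 the 3 SAM ratios and the 3 control ratios did not overlap, 50% against 37.3% of all pairs of tested genes with at least 10 counts in each library. Each of these 7 gave p = 0.1 in a two-sided exact permutation test, the smallest that 3 against 3 libraries allow, and 0.2 after Benjamini-Hochberg adjustment over the 14 pairs, so none could pass. The count ratio of BNIP3L to BNIP3 was 1.49, 1.36 and 1.47 in controls and 0.839, 0.976 and 0.757 with SAM. Counts of BNIP3L thus exceeded those of BNIP3 in each control and lay below them in each SAM library. BNIP3 was already the larger per kilobase in each control (59.97 to 62.2% of both) and remained so with SAM (69.6 to 74.7%). The ratio of EGLN3 to EGLN1 went from 0.0967 to 0.154 (geometric means). Per kilobase EGLN3 made up 12.5 to 14.2% of both in controls and 17.9 to 23.1% with SAM. The ratio of ENO2 to ENO1 went from 0.0170 to 0.0121, a log2 difference of -0.49. The ratio of EPAS1 to HIF1A went from 0.236 to 0.286, that of PFKM to PFKP from 0.593 to 0.730, that of ALDOC to ALDOA from 0.0211 to 0.0250, and that of PDK3 to PDK1 from 0.757 to 0.923. The other 7 pairs overlapped, LDHB to LDHA (0.377 and 0.354) and HK2 to HK1 (0.412 and 0.355) among them.

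**Figure D4:**
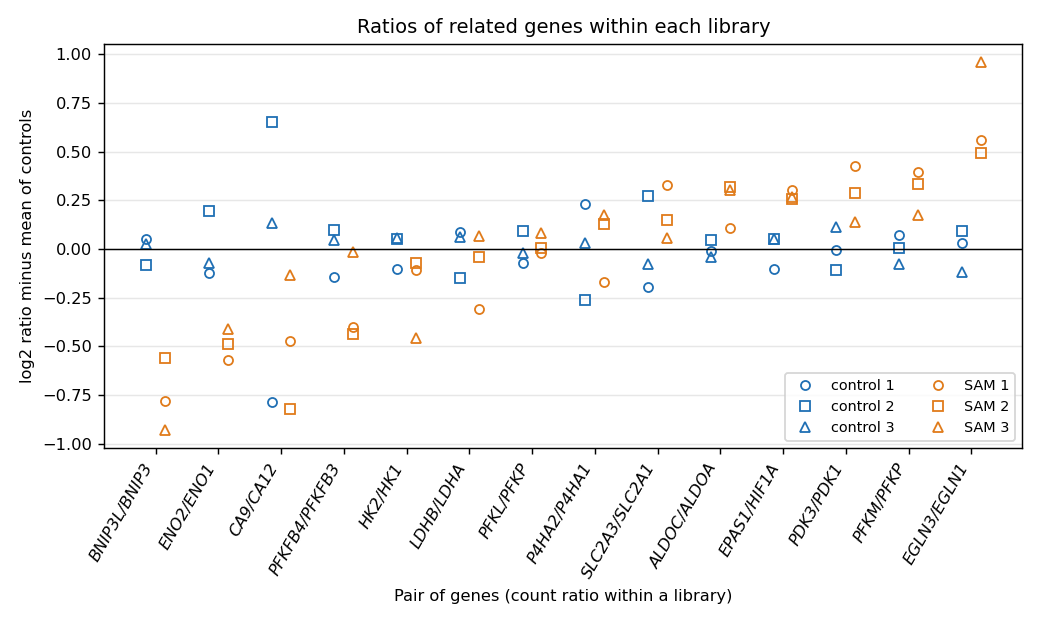
Log2 ratio of the counts of 2 related genes (vertical axis, minus the mean of the controls) for 14 pairs (horizontal axis) in each control (blue) and SAM (orange) library. The pair BNIP3L/BNIP3 lies lowest with SAM, a log2 difference of -0.76, and EGLN3/EGLN1 highest, at 0.67.

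Other genes around the pathway were taken from lists of known function. Of the other hexose transporters 6 of 11 were tested, and 2 fell while 0 rose (background 5.24% lower). SLC2A12 (GLUT12) read 24.1, 25.1 and 24.0 CPM in controls and 8.41, 12.5 and 7.86 CPM with SAM, a log2 fold change of -1.37 (SE 0.164, adjusted p = 0.00233). SLC2A10 (GLUT10) read 37.6, 36.1 and 37.2 CPM in controls and 16.7, 19.9 and 18.1 CPM with SAM, a log2 fold change of -1.03 (SE 0.098, adjusted p = 0.00114). Both lie far outside the range of the 38 genes, with SAM libraries near or below 0.5 of their control levels, and passed in each alternative setting.

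Of the other glycolysis and gluconeogenesis genes 14 of 28 were tested, with 0 higher and 1 lower (7.14%, against 10.4% of all tested genes). PCK2, the mitochondrial phosphoenolpyruvate carboxykinase of gluconeogenesis, fell from 92.9 ± 3.14 CPM in controls to 56.3 ± 14.8 CPM with SAM (SD, n = 3), by 0.73 on the log2 scale (adjusted p = 0.0274). TIGAR, which breaks down fructose 2,6-bisphosphate, gave 0.38 (adjusted p = 0.0774). Of 15 tested genes that govern the fate of pyruvate and lactate, 1 rose and 1 fell (13.3%, against 10.4%). MPC1, a subunit of the mitochondrial pyruvate carrier, read 15.1, 16.5 and 14.7 CPM in controls and 24.3, 19.3 and 20 CPM with SAM, a log2 fold change of 0.46 (adjusted p = 0.0420). PDK4, a pyruvate dehydrogenase kinase induced in starvation, read 14.8, 13.3 and 13.9 CPM in controls and 8.92, 9.47 and 5.61 CPM with SAM, a log2 fold change of -0.80 (adjusted p = 0.0262). PDP1, the phosphatase that reverses the action of these kinases, gave -0.38 (adjusted p = 0.0547).

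A second list of HIF targets outside the 38 genes held 49, of which 45 were tested, with 3 higher, 5 lower (together 17.8%, against 10.4% of all tested genes) and a median log2 fold change of -0.01. STC1 (log2 fold change 0.70), a secreted glycoprotein hormone, and JMJD6 (0.78), a nuclear hydroxylase, were among those that rose. BHLHE41, a repressor of the circadian clock, fell from 127 ± 11.2 to 65.3 ± 4.78 CPM (SD, n = 3; log2 fold change -0.96, adjusted p = 0.00160). The others that fell were STC2, a relative of STC1 (-0.90), DDIT4, an inhibitor of mTORC1 (-0.84), CCNG2, a cyclin of arrested cells (-0.79), and KDM5B, a histone demethylase (-0.62). STC1, JMJD6 and KDM5B were named after their values were seen. Both stanniocalcin genes thus moved, in opposite directions. Of 14 tested regulators of HIF, 0 passed in edgeR's test. There 5 had an unadjusted p under 0.05, a count without a share over all tested genes to set it against. DESeq2, limma voom and limma with a trend called 1, 1 and 0, where they called 12.7%, 10.9% and 9.86% of all tested genes. VHL, the subunit that recognises hydroxylated HIF alpha, was closest at -0.37 (adjusted p = 0.0538).

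**Figure D5:**
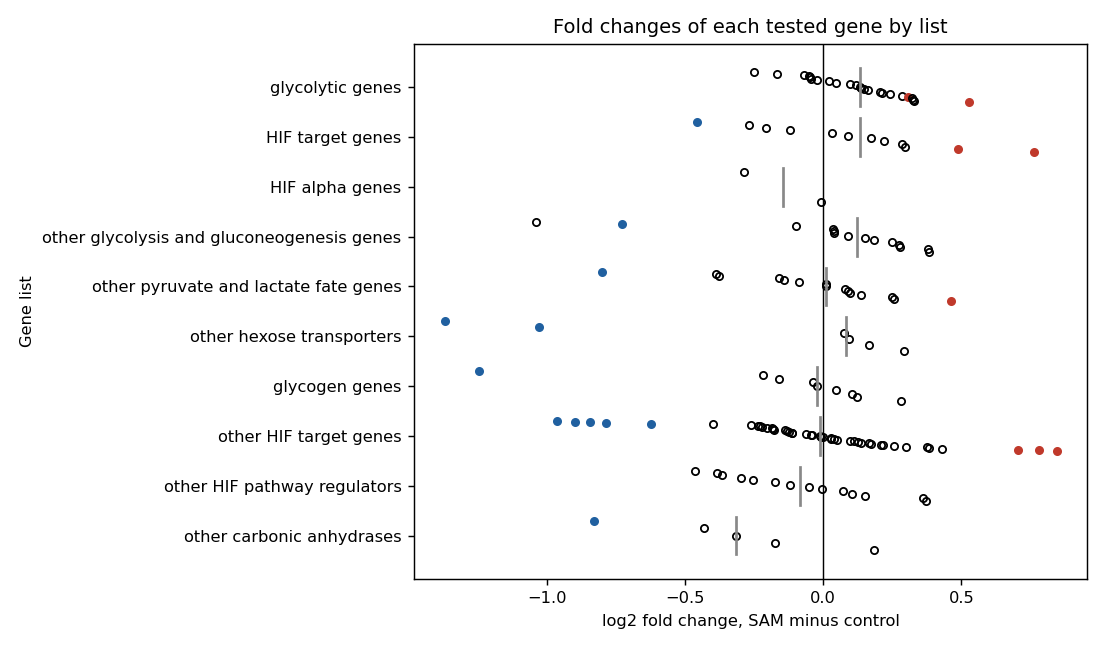
Log2 fold change (horizontal axis, SAM minus control) of every tested gene in the lists described here (vertical axis), with red for genes called higher, blue for genes called lower, open circles for the rest and grey bars for the list median. The glycolytic genes lie between -0.25 and 0.53, while SLC2A12 reaches -1.37 among the other hexose transporters.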

How the data were processed

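RNA from 6 PC-3 libraries was sequenced by the submitters on a HiSeq2000 after TruSeq preparation, per the labels. The authors deposited 2 tables: raw read counts for Ensembl genes, and a normalised signal, which is each count divided by the size factor of its library (0.562 to 1.75). The submitters' processing notes list STAR 2.4, HTSeq 0.6.1, DESeq2 1.8 and, as builds, hg19 with mm10, and give no role for any. The coordinates in the table are those of GRCh38: 99.8% of 51488 identifiers shared with GENCODE 44 overlap that gene there. No source used here gives the strand setting of the counting. The study's text describes another SAM concentration, sequencer and counting tool, so the labels were followed.

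Counts were tested in edgeR 4.0.16 (filterByExpr, TMM, glmQLFit and glmQLFTest, two-sided, R 4.3.3) with treatment as the only term, and p-values were adjusted over all 15312 tested genes (99.9% of counts). Genes without a symbol (3413) took at most 0.619% of counts. CPM per kilobase used GENCODE 44 canonical transcript lengths. The biological coefficient of variation was 13.5%. The floor of 3 counts covers counting error only. The fit was tested on simulated data.

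The 38 genes and the wider lists were chosen with earlier results of these data known. Values in each library are given for genes that passed, for HIF1A and EPAS1, and for the gene with the highest CPM per kilobase in each role with more than 1 gene, and for a few others chosen after their values were seen. From wider lists up to 5 genes with the smallest p are named, plus a few others chosen after their values were seen. Some genes of the lists are not reported here. Libraries of a group differed by more than sampling noise (chi-square per degree of freedom 5.08 to 63.1), so each counted as 1. Alternatives were RLE factors, library totals only, no filter, a 1 CPM filter, DESeq2 1.42.0, limma 3.58.1 (voom on counts, and a trend on log2 of the deposited signal with a pseudocount of 1), a replicate block, leaving out each library or control 1 with SAM 2, removal of a length and GC trend, and a threshold of 0.01.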

Additional observations from a re-analysis of the deposited data

How the results depend on the processing

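The directions of EGLN3, CA12, BNIP3L, ALDOC and PFKFB3 held under each of 17 alternatives. With library totals only, limma voom or limma with a trend, 0 glycolytic genes passed as higher, against 1 with DESeq2, 4 without a filter and 2 as reported. With a threshold of 0.01 on the adjusted p, 0 glycolytic genes, 0 HIF targets as higher and 0 as lower passed, with 126 higher and 127 lower among all genes, and 0 called among the other glycolysis genes, the pyruvate and lactate genes and the other carbonic anhydrases. Deviations from the group means had correlations of -0.17, -0.40 and 0.13 between libraries of the same number. With so few libraries in a group, these cannot show whether equal numbers mark libraries handled together. With the replicate block 440 genes were higher and 588 lower, with 1 glycolytic gene, 1 HIF target as higher and 1 pyruvate and lactate gene.

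Without a filter 1402 genes were higher and 1341 lower, with 2 of the other glycolysis genes and 4 HIF regulators called. With the length and GC trend removed 1609 were higher and 1272 lower, with 5 other glycolysis genes, 2 glycogen genes, 13 other HIF targets and 2 HIF regulators called. Without control 1 and SAM 2, 446 were higher and 508 lower, with 0 glycolytic genes, 1 HIF target higher and 0 lower, 0 other glycolysis genes, 1 HIF regulator and 0 other carbonic anhydrases. Library totals only, DESeq2 and voom each called 1 HIF regulator.

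Leaving out 1 library at a time changed the counts most. All genes called higher ranged from 61 to 1661 and lower from 78 to 1572, the lowest without control 3 and the highest without SAM 2. The ranges were 0 to 3 glycolytic genes higher and 0 to 1 lower, 0 to 3 HIF targets higher and 0 to 2 lower, and 0 to 1 HIF alpha genes. Without control 1, 2, 3 or SAM 1 none of the 38 passed, where 139 to 255 of all genes (0.909 to 1.61%) did. They were 0 to 3 other glycolysis genes, 0 to 4 pyruvate and lactate genes, 1 to 2 glycogen genes, 4 to 11 other HIF targets, 0 to 5 HIF regulators and 0 to 2 other carbonic anhydrases. The median of the HIF targets ranged from 0.042 to 0.22.

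Genes near 0 changed sign without passing in either direction. Over the left-out libraries the log2 fold change ranged from -0.0087 to 0.27 for SLC2A3, -0.13 to 0.034 for HK2, -0.16 to 0.071 for PFKL, -0.15 to 0.024 for PFKP, -0.10 to 0.10 for PFKFB4, -0.0030 to 0.20 for GAPDH, -0.0017 to 0.18 for LDHB, -0.033 to 0.14 for PDK3, -0.16 to 0.0075 for SLC16A3, -0.39 to 0.32 for CA9, -0.081 to 0.12 for ANKRD37 and -0.12 to 0.13 for EPAS1. With the length and GC trend removed HK2 was at 0.033, PFKL at 0.0045, ANKRD37 at -0.033 and EPAS1 at 0.051. With library totals only PFKFB4 was at -0.012 and ANKRD37 at -0.00095. CA9 was at 0.0072 with limma on the deposited signal, ANKRD37 at -0.014 without control 1 and SAM 2, and EPAS1 at 0.0032 without a filter. The causes were not tested. CA9 and ANKRD37 rest on 455 and 267 counts in all.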

Other observations

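Glycogen is the cell's store of glucose, and 9 of 10 listed genes of its metabolism were tested, of which 0 rose and 1 fell (11.1%, against 10.4% of all tested genes). GYG2, a glycogenin that primes glycogen chains, read 15.4, 12.5 and 13.1 CPM in controls and 4.58, 5.24 and 7.53 CPM with SAM, a log2 fold change of -1.25 (SE 0.191, adjusted p = 0.00716 in edgeR's test). Each SAM library was below each control. GYG1, the other glycogenin, was at 33.5 CPM in controls and 40.7 CPM with SAM and did not pass (log2 fold change 0.28, adjusted p = 0.0868). Glycogen synthase GYS1 (log2 fold change -0.02) and the liver-type phosphorylase PYGL (-0.04) did not pass.

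Of 13 carbonic anhydrases other than CA9 and CA12, 5 passed the filter, and 1 fell (20%, against 10.4%). CA11, a relative without catalytic activity, read 9.01, 8.76 and 8.76 CPM in controls and 4.44, 3.72 and 6.73 CPM with SAM (log2 fold change -0.83, adjusted p = 0.0308), the opposite direction to CA12. CA5B, a mitochondrial form, was at 13.6 CPM in controls and 10.1 CPM with SAM and did not pass (log2 fold change -0.43, adjusted p = 0.0863).

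Several of the 38 genes share part of their annotated span with another gene, on the same or the opposite strand. Spans were compared without regard to exons, and whether reads are shared was not tested. CSNK1D held 18360 counts beside 32073 of SLC16A3, with a log2 fold change of 0.01. SENP1 held 4010 counts beside 13295 of PFKM, at -0.04. LRRC23 held 635 counts beside 3278 of ENO2 and was at -0.50 (adjusted p = 0.0734), while ENO2 was at -0.17. Processed pseudogenes of the 38 genes were listed with few counts: 39 such entries for BNIP3 held 6.46% of its own counts, and 60 for GAPDH held 0.215%.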
